A study of Mus musculus with 2 samples.

Results

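Lung neutrophils are described here in 2 droplet single-cell RNA libraries of total lung cells, one from control mice and one from mice with a Cre that deletes the kinase Lkb1 in the lung epithelium. Control mice were Lkb1f/f, with loxP-flanked alleles of Lkb1 (gene symbol Stk11) and no Cre named. The Cre mice were Nkx2.1 Cre;Lkb1f/f, with the same floxed alleles and a Cre recombinase driven by Nkx2.1, a gene of the lung and thyroid epithelium and of parts of the forebrain, so neutrophils are not a cell type in which this driver is known to act. Each library held the cells of 3 pooled mice aged 5 weeks. With 1 library per genotype there is no replicate and no test between the genotypes was possible, so that an effect of genotype cannot be told apart from one of the animals pooled or of the library made from them. All intervals are 95% intervals that cover counting error only.

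Neutrophils were selected from raw transcript counts, given as unique molecular identifiers (UMIs). A cell had at least 200 genes, at least 500 UMIs and at most 20% mitochondrial UMIs. To count as a neutrophil, S100a8 and S100a9 had to make up at least 1% of its UMIs, and Csf3r, Cxcr2, Il1r2, Mmp9 and Retnlg together had to give at least 3 UMIs. Cells with any UMI of the B cell gene Cd79a, or with 0.1% or more of the macrophage genes C1qa, C1qb and C1qc, were left out. This gave 3264 neutrophils of 27974 kept cells, 2103 of 12863 in the control and 1161 of 15111 in the Cre library. The levels of the genes used in the selection are given as description only.

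Neutrophils are short-lived granulocytes made in the bone marrow. Their proteins are packed in granules in the order in which the cells mature, with myeloperoxidase and elastase in primary granules of promyelocytes, lactoferrin, cathelicidin and lipocalin-2 in secondary granules of myelocytes and metamyelocytes, and gelatinases last. Mature cells lose the granule transcripts, enter the blood through CXCR2 signals and leave it or return to the marrow through CXCR4. In the lung, a large marginated pool sits in the capillaries and moves into the airspace when chemokines, leukotrienes or complement fragments call it. Once activated, neutrophils transcribe cytokine genes such as Il1b and Cxcl2 under NF-kB.

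The markers given with the label were high in the selected cells, as the rule requires, and so were neutrophil genes that the rule did not use. Levels are CPM, a gene's UMIs per 1000000 UMIs summed over the cells of a library. S100a8 and S100a9, the subunits of calprotectin, were at 55401 and 77066 CPM in control neutrophils and at 27052 and 38193 CPM in the Cre library, against 373 and 544 CPM in all other control cells and 108 and 148 CPM in all other Cre cells. Csf3r, the G-CSF receptor, stood at 1704 and 1965 CPM in neutrophils and at 25.8 and 18.9 CPM in other cells. Of the genes outside the rule, Clec4d, a C-type lectin receptor of neutrophils and monocytes, was at 1503 and 1538 CPM against 38.4 and 22.9 CPM in other cells, and Msrb1 at 3090.1 and 3152 against 238 and 268 CPM. Of markers fixed for related granulocytes, Prg2, Epx and Il5ra of eosinophils and Cpa3, Ms4a2 and Fcer1a of basophils and mast cells had 0 UMIs in both libraries, and Siglecf was at 14.4 and 12.6 CPM. All 5 eosinophil genes, Siglecf among them, summed to 15.4 and 14.2 CPM, and all 5 basophil and mast cell genes to 6.65 and 9.35 CPM. Markers of other lung cells were present as well: the 3 club cell genes summed to 7212 and 1273 CPM, the 6 alveolar type 2 (AT2) genes to 10452 and 12945 CPM, the 5 fibroblast genes to 1239 and 3016 CPM and the 5 erythroid genes to 3139 and 26662 CPM. Stk11 itself (chr10:80115803-80130682, plus strand, positions in the mm10 genome from GENCODE M21 here and below) stood at 76.4 CPM (575 UMIs) and 80.9 CPM (199 UMIs), and a count at the 3' end of a transcript does not show whether an exon further up was deleted.

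Sequencing depth per neutrophil differed between the libraries. The median neutrophil held 2674 UMIs in the control and 1585 UMIs in the Cre library, with 5th to 95th percentiles of 1762 to 9010.2 and 858 to 5623. The other kept cells had medians of 4276 and 3645 UMIs, so neutrophils had 0.625 and 0.435 of the depth of the cells around them. Mitochondrial UMIs had medians of 1.75% and 3.201% per neutrophil. Cells above 5000 UMIs were 312 control neutrophils (14.8%) with 37.2% of all control neutrophil UMIs, and 77 Cre neutrophils (6.63%) with 24.6%. Scrublet called 92 and 33 of these deep cells doublets, of 126 (5.99%) and 62 (5.34%) calls among all neutrophils, and no cell was removed for this. The libraries shared 68 barcode sequences, 1 of them a neutrophil in each. Because of these depths each cell was also thinned at random to 1000 UMIs, which kept 2083 control and 1064 Cre neutrophils.

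Immature-stage, interferon-induced and NF-kB genes recur below, and the promoters of some of their members are shown first because they carry the motifs for which the groups are known. Each sequence is the 250 bases before the RefSeq start of the gene in GRCm38.p6, written 5' to 3' on the gene's strand, with the matches of the pattern named for that gene in capitals. Ngp, a cathelicidin-like protein of secondary granules, stands for the immature list and holds the C/EBP pattern TTGCNNAA (chr9:110419558-110419807, plus strand). Isg15, a ubiquitin-like protein induced by interferon, holds overlapping matches of the interferon response pattern TTCNNTTTC on the opposite strand (chr4:156200819-156201068, minus strand). Cxcl2 (chr5:90903649-90903898, plus strand) and Cxcl3 (chr5:90785851-90786100, plus strand), chemokine ligands of CXCR2, share the NF-kB pattern GGANTTTCC.
Ngp: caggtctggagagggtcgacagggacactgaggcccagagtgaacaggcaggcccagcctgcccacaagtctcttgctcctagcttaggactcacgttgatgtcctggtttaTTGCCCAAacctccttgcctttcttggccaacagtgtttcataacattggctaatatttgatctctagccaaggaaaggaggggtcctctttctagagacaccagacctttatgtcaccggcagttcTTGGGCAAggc
Isg15: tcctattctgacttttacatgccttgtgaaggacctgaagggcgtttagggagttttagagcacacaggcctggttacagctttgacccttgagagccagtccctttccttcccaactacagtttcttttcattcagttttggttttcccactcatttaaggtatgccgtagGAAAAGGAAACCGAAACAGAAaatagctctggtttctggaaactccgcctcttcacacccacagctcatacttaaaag
Cxcl2: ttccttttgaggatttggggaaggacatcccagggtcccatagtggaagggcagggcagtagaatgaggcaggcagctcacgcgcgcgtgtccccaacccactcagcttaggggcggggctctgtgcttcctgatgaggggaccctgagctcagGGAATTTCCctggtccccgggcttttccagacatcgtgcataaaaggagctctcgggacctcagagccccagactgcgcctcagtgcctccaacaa
Cxcl3: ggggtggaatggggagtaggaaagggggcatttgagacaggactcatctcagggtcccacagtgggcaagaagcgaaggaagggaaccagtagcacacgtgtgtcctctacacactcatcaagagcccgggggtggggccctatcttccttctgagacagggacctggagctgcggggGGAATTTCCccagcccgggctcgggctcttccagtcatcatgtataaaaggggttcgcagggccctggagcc
Both strands were searched for each pattern. TTGCNNAA was in the promoter of 7 of 15 immature-list genes with a RefSeq promoter, among them Lcn2, Ltf, Mmp8 and Anxa1, and in 10.8% of all genes. GGANTTTCC was in 8 of 16 NF-kB and cytokine genes, among them Nfkbia and Tnfaip3, against 1.25% of all genes. TTCNNTTTC was in 9 of 16 interferon-induced genes, among them Ifit1, Rsad2 and Gbp2, against 8.18%. The Isg15 window also holds GGANTTTCC, which is not in capitals above. The CREB pattern TGACGTCA was in none of the immature, mature or interferon-induced promoters and in Nfkbid of the NF-kB genes, against 1.77% of all genes. A match describes these letters and is not a measurement of binding.

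Neutrophils made up a smaller share of the Cre library. They were 16.3% (15.7 to 16.9998) of kept control cells and 7.68% (7.26 to 8.12) of kept Cre cells, a log2 ratio of -1.09 (-1.19 to -0.99). Among leukocytes, taken as cells with at least 3 UMIs of Ptprc, Laptm5, Coro1a, Rac2, Cd52 and Tyrobp together, they were 26.9% and 13.2%, a log2 ratio of -1.03 (-1.13 to -0.92). Most candidates were decided by S100a8 and S100a9, which 2229 control and 1219 Cre cells passed. The 5 receptor and enzyme genes left 2199 and 1198, the Cd79a rule 2111 and 1165, and the C1q rule the final numbers. Few cells lay near the S100 threshold: 12 control and 27 Cre cells had 0.8 to 1% of these UMIs and met the rest of the rule, and 8 and 23 neutrophils had 1 to 1.2%. At the other threshold, 9 and 8 cells missed by having 2 UMIs of the 5 genes and 3 and 17 passed with 3, against medians of 28 and 15. The share stayed lower in the Cre library under every alternative rule tried. The smallest log2 ratio, -0.79 (-0.94 to -0.65), came from leaving out cells with 2 or more UMIs of markers of other lineages.

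Calprotectin transcripts took up less of the median Cre neutrophil, with overlap between the cells of the libraries. S100a8 and S100a9 together were a median of 12.01% of a control neutrophil's UMIs (quartiles 7.22 and 17.8) and 5.67% of a Cre neutrophil's (quartiles 3.15 and 8.696). At matched depth the mean was lower in the Cre library in all 6 ranges of UMIs per cell. In cells of 1500 to 2000 UMIs the libraries lay closest, at 80.5 and 75.03 per 1000 UMIs in 210 and 386 cells. In cells of 3000 to 5000 UMIs they lay at 173 and 82.3 in 452 and 81 cells. Of these, 25 and 19 were called doublets. Haemoglobin in them had means of 0.262 and 71.8 UMIs per 1000 and medians of 0.249 and 0.449, so the cells compared differed in more than genotype. Of the 5 other selection genes, Retnlg, a resistin-like protein of neutrophils, was also lower, at 8601 and 4616 CPM, while Cxcr2, the receptor for Cxcl2, stood at 729 and 967 CPM and Csf3r at the levels above. Mmp9, or gelatinase B, was at 1347 and 1347 CPM, and Il1r2, the decoy receptor for IL-1, at 969 and 858 CPM.

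**Figure D1:**
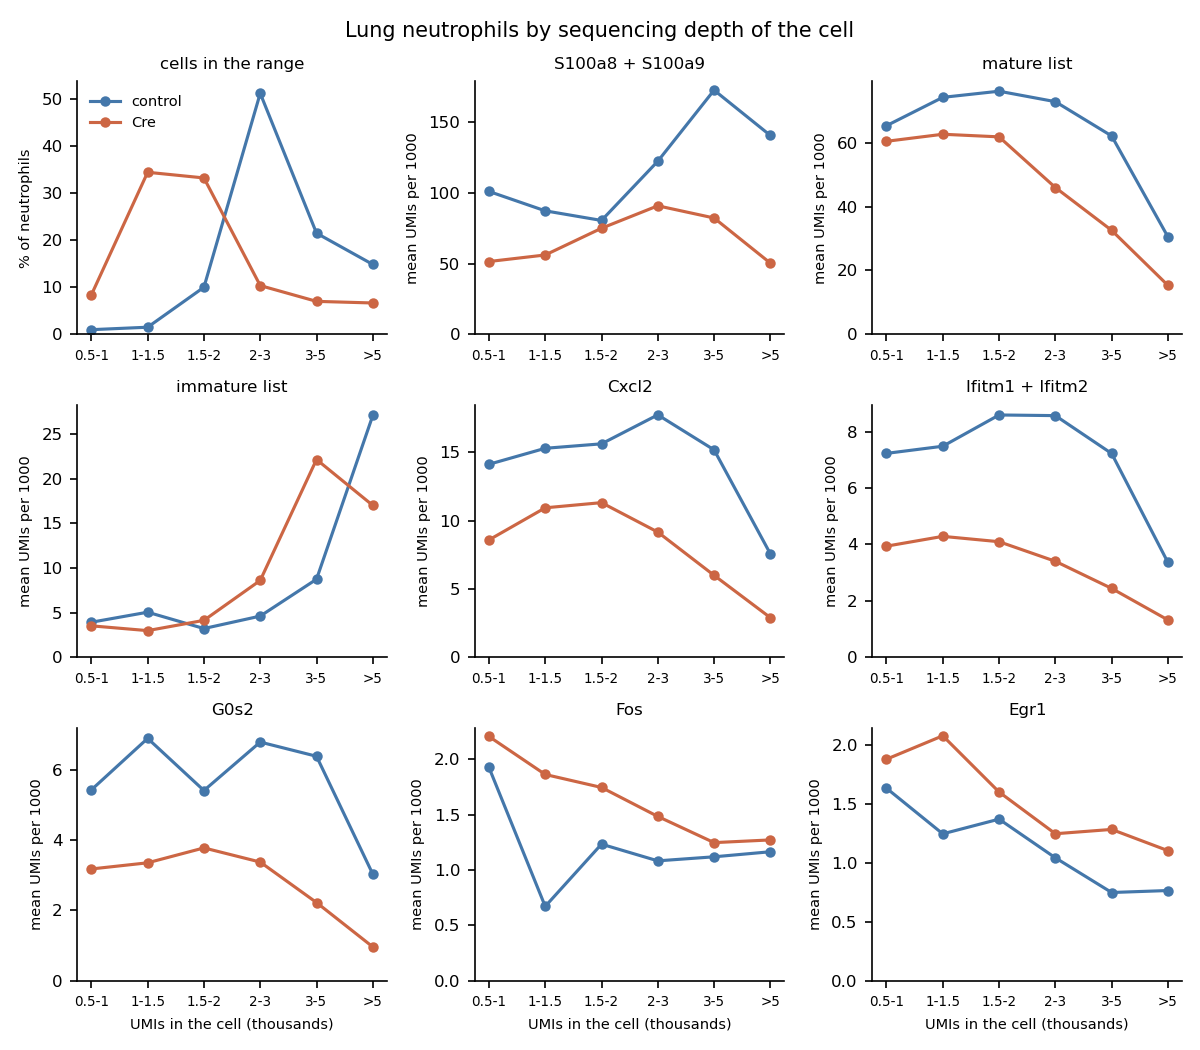
Mean UMIs per 1000 UMIs of a neutrophil (y axes) for S100a8 with S100a9, the mature and immature lists and 5 genes, by the cell's total UMIs (x axes, in units of 1000), in the control (blue) and Cre (orange) library; the first panel gives the percent of each library's neutrophils in each range. The largest group of control cells, 51.3%, lies at 2000 to 3000 UMIs, and 34.5% and 33.2% of Cre cells lie at 1000 to 1500 and 1500 to 2000. S100a8 with S100a9, the mature list, Cxcl2, Ifitm1 with Ifitm2 and G0s2 are lower in the Cre library in all 6 ranges, Fos and Egr1 are higher in all 6, and the immature list crosses.

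For differences between the libraries, UMIs were summed over the neutrophils of each library. A gene with at least 20 UMIs was counted as higher or lower in the Cre library where log2((Cre CPM + 5)/(control CPM + 5)), less the median of all genes, reached a 1.5-fold change; this value is called the relative log2 difference below. The median subtracted was 0.23. Among 10570 genes, 460 were higher (4.35%) and 484 lower (4.58%), or 8.93% in all. Without the median taken off, 1444 were higher and 177 lower, so that the part higher among genes counted went from 48.7% to 89.1%. Every gene then moves up by that median, so a list can only lose lower genes and gain higher ones. List counts below are with the median taken off, to be set beside 4.58% of all genes lower and 4.35% higher. The selection genes, read only as description, included 3 lower of 7 (S100a8, S100a9 and Retnlg). Folds are plain ratios of CPM, Cre over control, with exact intervals for 2 Poisson counts, and "lower" or "higher" describes these 2 libraries. Depth, mitochondrial share and haemoglobin (0.314% and 2.66% of neutrophil UMIs) differed along with the genotypes, and their part in the differences was not tested.

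**Figure D2:**
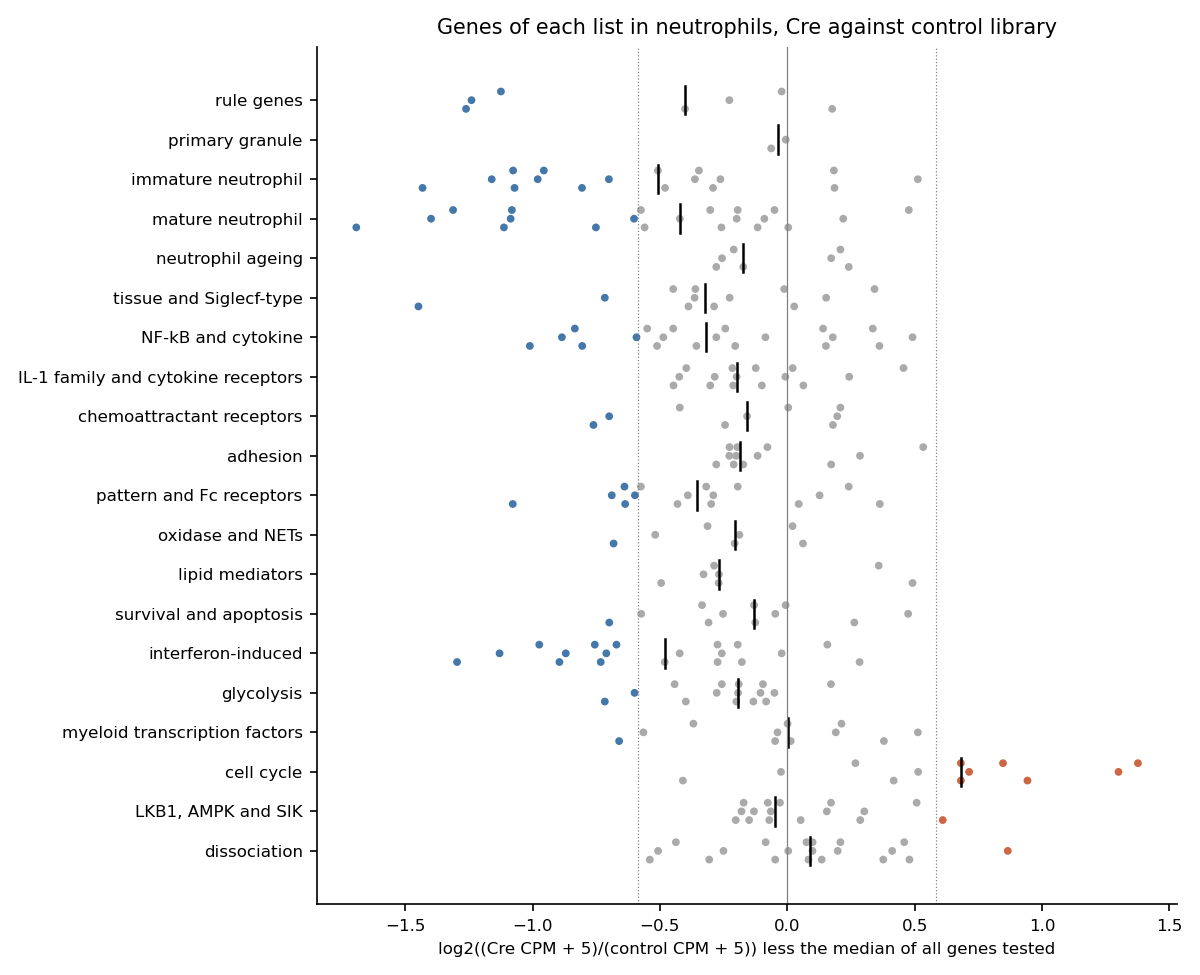
Relative log2 difference of each measured gene (points) in 20 gene lists (rows), with the list median as a black bar; dotted lines mark 1.5-fold, blue points are genes counted as lower and orange points genes counted as higher in the Cre library. Genes counted as lower gather in the immature, mature, interferon-induced, NF-kB and pattern receptor rows, and those counted as higher in the cell cycle row.

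Primary granule transcripts were near absent from the neutrophils of both libraries. Mpo, the myeloperoxidase gene, had 0 UMIs in both, Elane (neutrophil elastase) had 1 and 0, Ctsg (cathepsin G) 0 and 1, and Prtn3 (proteinase 3) 7 and 2. A count of 0 allows up to 3 UMIs per library by counting error. Of the 8 genes in the list only Ctsc and Cd63, which other cells also express, reached 20 UMIs. Ctsc, which activates the granule proteases, was at 89.99 and 106 CPM, and neither gene was counted as different.

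Secondary granule and other immature-stage transcripts were lower in the Cre sum, and for the secondary granule genes this depended on the deepest cells. Of 17 immature-list genes measured, 8 were lower and 0 higher, with a median relative log2 difference of -0.51. Ngp was at 2904 CPM in control and 1722 CPM in Cre neutrophils, a fold of 0.593 (0.574 to 0.613). Camp, the cathelicidin gene, was at 1674 and 1205 CPM, and Ltf, lactoferrin, at 683 and 573 CPM with a relative log2 difference of -0.48. Lcn2, the siderophore-binding lipocalin-2, was at 2601 and 1447 CPM, a fold of 0.556 (0.537 to 0.577), although within depth ranges it was higher in the Cre library in 4 of 6. The later-stage genes Anxa1 (annexin A1, 1218 and 635 CPM) and Wfdc21 (a WAP-domain protein, 1905 and 824 CPM) had folds of 0.522 and 0.432. Mmp8, the neutrophil collagenase, and Cd177, a surface protein of a subset of neutrophils, were not counted as different, at 715 and 683 CPM and 153 and 140.3 CPM. Cebpe, the transcription factor that drives secondary granule genes, had 71 and 47 UMIs, 9.44 and 19.1 CPM.

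Ltf, Camp and Ngp were each found in few cells, and these overlapped in part. With each cell at 1000 UMIs, 9.17% (7.96 to 10.5) of control and 5.17% (3.92 to 6.68) of Cre neutrophils had a UMI of any of the 3. Unthinned, the shares were 14.2% and 6.55%. In B cells at 1000 UMIs, which should lack these genes, they were 0.6% and 0.345%, at median depths of 3250 and 2188 UMIs before thinning. Ngp was the most often found, in 8.11% and 4.32% of neutrophils, against 4.85% and 3.195% for Camp and 4.37% and 2.91% for Ltf, so many cells with Ngp lacked one or both of the others. Of control neutrophils with Ltf, 84.6% also had Camp, against 1.205% of those without. In the Cre library the shares were 83.9% and 0.774%.

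Neutrophils in which the immature list reached 50 of 1000 UMIs, a limit set after seeing the data, are called granule-rich here. They numbered 64 in the control, or 3.07% (2.37 to 3.91), and 25 in the Cre library, or 2.35% (1.53 to 3.45). They held 37.7% and 42.04% of all immature-list UMIs. A further 42 and 10 cells lay just under the limit at 25 to 49 UMIs, and 32 and 7 just above it at 50 to 99. The rest of the class lay above 99, up to 223 and 183 UMIs. Whether the class is a separate type was not tested. Granule-rich cells were deep, at medians of 7669.5 and 4012 UMIs against 2651 and 1621 in the other neutrophils, and 1 and 0 of them were called doublets.

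Beyond the list that defined them, granule-rich cells were poor in the transcripts of activated neutrophils in both libraries. Il1b was at 688 CPM in granule-rich and 17798 CPM in other control neutrophils, and at 360 and 16681 CPM in the Cre library. Cxcl2 was at 1703 and 15836 CPM, and at 240 and 10302 CPM in the Cre library. Cxcr4, which retains neutrophils in the marrow, was at 93.8 and 1052 CPM and at 520 and 1366 CPM. S100a8, a selection gene, was higher in them, at 157938 against 49732 CPM in the control and 101800 against 26369.6 CPM in the Cre library. Ly6g, the antigen by which mouse neutrophils are sorted, was detected in 56.2% and 52% of granule-rich cells and in 10.1% and 4.23% of the others. Mpo and Elane gave no UMI in granule-rich cells, and the proliferation gene Mki67 gave 1 and 0. These values are a description, since the cells were chosen from the same counts.

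**Figure D3:**
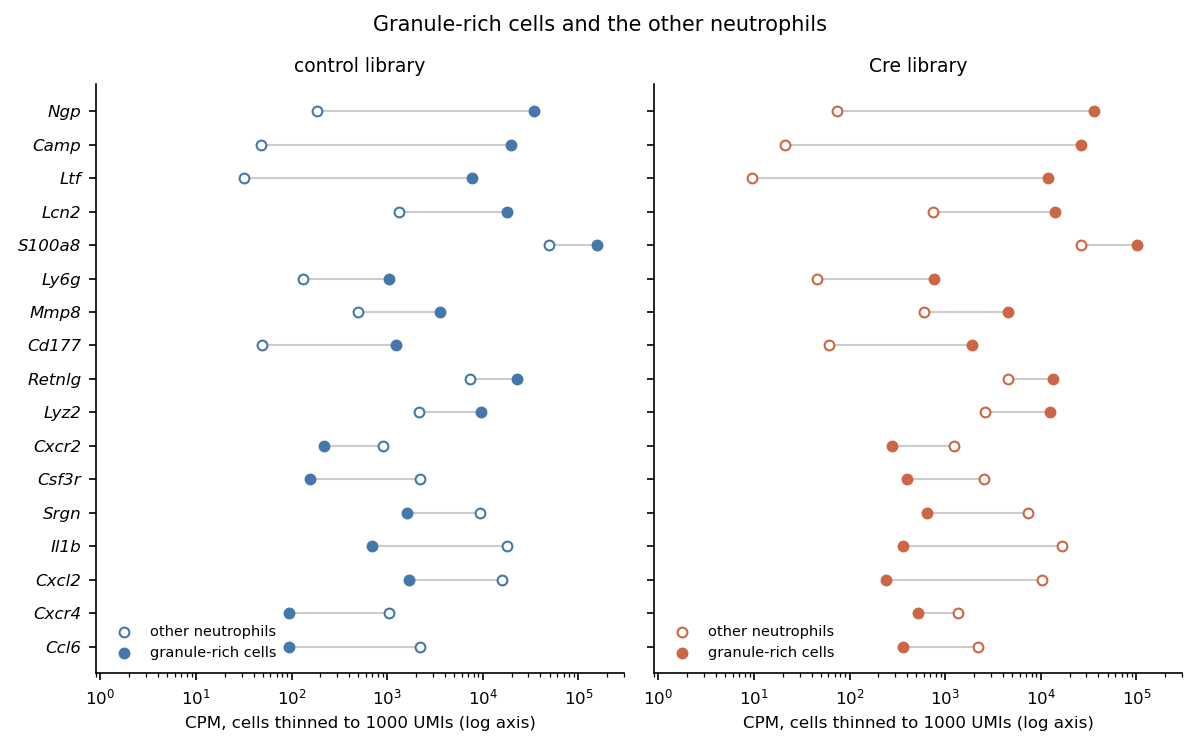
CPM at 1000 UMIs per cell (log x axis) of 17 genes (rows) in granule-rich cells (filled) and the other neutrophils (open) of the control (left) and Cre (right) library. In both libraries Ngp, Camp, Ltf, Lcn2 and Ly6g are higher in granule-rich cells, and Il1b, Cxcl2, Csf3r, Cxcr2 and Srgn are lower.

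At equal depth per cell the immature list gave 8.73 UMIs per 1000 in the control and 6.52 in the Cre library, a log2 ratio of -0.42 (-0.46 to -0.38). This ratio depended on which depths were compared. Among cells of 1000 to 3000 UMIs it was -0.050 (-0.11 to 0.009), and with cells over 5000 UMIs left out, an alternative added after seeing the data, it was 0.044 (-0.003 to 0.09). These ratios include Chil3, which was at 0.019 and 0.53 UMIs per 1000 in cells of 2000 to 3000 UMIs. In B cells the whole list gave 0.403 and 1.06 UMIs per 1000. The list was not computed without Chil3. The share of cells with Ltf, Camp or Ngp turned from a log2 ratio of -0.83 (-1.29 to -0.39) to 0.70 (-0.11 to 1.52) within 1000 to 3000 UMIs. Ngp and Camp turned likewise, to relative log2 differences of 2.93 and 3.90 in that range. There 8 immature-list genes were higher and 2 lower, beside 7.59% and 8.17% of all genes tested in that range. A fixed limit on depth removed most granule-rich control cells, which lay above 5000 UMIs, and fewer of the shallower Cre ones. Without the granule-rich cells the list gave 5.61 and 3.87 UMIs per 1000. This again took cells of all depths, at medians of 2651 and 1621 UMIs before thinning. Within depth ranges the list over all neutrophils was higher in the Cre library in 3 of 6 and lower in 3.

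Transcripts of mature neutrophils were also lower in the Cre library, and this held across depths. The mature list, without selection genes, gave 64.8 UMIs per 1000 in the control and 54.9 in the Cre library at equal depth, a log2 ratio of -0.24 (-0.25 to -0.23), and -0.29 (-0.31 to -0.28) among cells of 1000 to 3000 UMIs. Of 21 genes, 8 were lower and 0 higher, with a median of -0.42. The immature list's part of both lists' UMIs was 11.9% and 10.6%, at 1000 UMIs per cell and with cells of all depths.

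The neutrophils of each library spread widely. The mature list's UMIs per 1000 ran from 28 to 94.8 between the 10th and 90th percentile of control neutrophils, around a median of 67. In Cre neutrophils they ran from 22 to 82 around 57. The immature list ran from 1 to 13 around 4 in the control and from 0 to 9 around 3 with Cre, so most cells held few of its UMIs. Wfdc21 was rarer in cells with Cxcr4, at 55.2% against 69.2% of control cells without it and 35.4% against 46.4% of Cre cells. Ptgs2, the gene of cyclooxygenase-2, went the other way, since 60.8% of control cells with it had Cxcr4 against 45.03% of those without, and 68.7% against 48.3% of Cre cells. These are descriptions of cells that share a library, and the spread includes counting error.

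The interferon-inducible membrane proteins Ifitm1 and Ifitm2 were among the lower mature genes. Ifitm1 was at 2835 CPM in control and 1333 CPM in Cre neutrophils, a fold of 0.47 (0.453 to 0.488), and was found at 1000 UMIs in 67.2% and 51.3% of neutrophils against 1.05% and 0.921% of B cells. Ifitm2, its neighbour in the genome, was at 3289 and 1811 CPM. G0s2, an inhibitor of the lipase that breaks down stored fat, was at 5052 and 2732 CPM, a fold of 0.541 (0.527 to 0.555). Ifitm1 with Ifitm2, and G0s2, were lower in all 6 depth ranges. The stefin-family genes Stfa2, Stfa2l1, BC100530 and Gm5483, cysteine protease inhibitors clustered on chromosome 16, were lower too, with Stfa2l1 at 858 and 473 CPM. They are near-identical copies among which reads may have been split. Slpi, an inhibitor of elastase, was at 3268 and 2519.7 CPM, just past the limit with a relative log2 difference of -0.60.

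Other abundant mature genes were not counted as different in the summed cells. Il1b was the most abundant list gene, at 13698 and 13002 CPM, found in 95.8% and 95.9% of cells. Within depth ranges it was lower in the Cre library in all 6, closest at 18.97 and 18.8 UMIs per 1000 in cells of 500 to 1000 UMIs. Cells of 1000 to 1500 and 1500 to 2000 UMIs held 34.5% and 33.2% of Cre neutrophils. There Il1b was at 21.6 and 19.1, and at 22.2 and 18.9. In cells of 2000 to 3000 UMIs, with 10.3% of Cre neutrophils, it was at 20.001 and 11.9. Mean haemoglobin in that range was 0.333 and 22.2 UMIs per 1000. Ccl6, a CC chemokine, was at 1867 and 1827 CPM, and Msrb1, a selenoprotein that repairs oxidised methionine, at 3090.1 and 3152 CPM. Hdc, which makes histamine, was at 2076 and 2348 CPM. Jaml, a junctional adhesion molecule, lay on the other side, at 292 and 479 CPM with a relative log2 difference of 0.48, under the limit.

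Of the lists for neutrophil ageing and for the Siglecf-positive tissue state, only the second held genes counted as different. None of the 7 ageing genes was counted. Cxcr4 was at 775 and 1050.0 CPM, higher in the Cre library in 3 of 6 depth ranges, with a relative log2 difference of 0.21, and Itga4 and Tlr4 at 169 and 224 and 42.4 and 60.6 CPM. Of 12 tissue-state genes 2 were lower and 0 higher, with a median of -0.32, beside 4.58% and 4.35% of all genes. The 2 were Hilpda, a lipid droplet protein induced by hypoxia, and Slc2a1, the glucose transporter GLUT1. Hilpda was at 128 and 52.1 CPM with a fold of 0.407 (0.336 to 0.489), and Slc2a1 at 118 and 82.6 CPM. Vegfa, another hypoxia-induced gene, was at 30.97 and 48.4 CPM, and Hif1a at 232 and 269.6 CPM, neither past the limit. Siglecf itself was found at 1000 UMIs in 1.39% and 1.32% of neutrophils.

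Among NF-kB and cytokine genes the CXCR2 ligands Cxcl2 and Cxcl3 and some feedback genes were lower, while the other cytokines were not counted as different. With the median of all genes taken off, 5 of 20 genes were lower and 0 higher, and the list median was -0.32. Cxcl2 was at 12831 CPM in control and 8132 CPM in Cre neutrophils, a fold of 0.634 (0.624 to 0.643), and was lower in all 6 depth ranges. Cxcl3, with the same motif in the promoter shown above, was at 193 and 109.8 CPM, a fold of 0.57 (0.499 to 0.65). The feedback inhibitors Nfkbia and Nfkbie were at 3514 and 2728 CPM and 89.3 and 56.9 CPM, and Sod2, mitochondrial superoxide dismutase, at 223 and 148 CPM. Nfkbia was only just past the limit, at -0.59, and fell short of it under 5 of the alternatives.

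Ptgs2, Zfp36 and Ier3 lay above the median of all genes in the Cre library without reaching the limit. The plain folds of Ptgs2 and Zfp36 were 1.65 and 1.51, so that their not being counted rests on the median taken off. Ptgs2, cyclooxygenase-2, was at 1283 and 2115 CPM, a relative log2 difference of 0.49, and was found in 56.5% and 66.9% of cells. Zfp36, which destabilises cytokine messages, was at 2339.9 and 3523 CPM, and Ier3 at 563 and 834 CPM. The cytokine genes Tnf, Ccl3 and Ccl4 lay near the median, with Tnf at 427 and 472 CPM, Ccl3 at 311 and 406 CPM and Ccl4 at 505 and 670.2 CPM. Detection of Ccl3 and Ccl4, neighbouring chemokine genes, overlapped in part: 33.5% of control cells with Ccl3 had Ccl4 against 11.01% of those without, and 43.6% against 15.5% in the Cre library. None of 15 IL-1 family and cytokine receptor genes was counted. Il17ra, the receptor for IL-17A, was closest, at 162 and 264 CPM and in 15.5% and 25.8% of cells. Il1rn, the IL-1 receptor antagonist, was at 581 and 678 CPM.

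Interferon-induced genes were lower as a group. At 1000 UMIs per cell, 55.6% of control and 51.1% of Cre neutrophils had a UMI of the list. Of 19 genes 9 were lower and 0 higher, with a median of -0.48. With 20 CPM in place of 5 added to each value 3 were lower, since most of these genes lie at low CPM. Under that setting 1.06% of all genes were lower. Isg15 was at 119.9 CPM in control and 61.8 CPM in Cre neutrophils, a fold of 0.516 (0.431 to 0.613), and was found in 10.6% and 5.55% of cells. Gbp2, an interferon-induced GTPase, was at 87.99 and 50.4 CPM, and Zbp1, a sensor of nucleic acids, at 25.1 and 9.35 CPM. Ifit1 was at 37.1 and 21.96 CPM and Cxcl10 at 70.8 and 47.6 CPM. Rsad2 (viperin, 127 and 132 CPM) and Slfn4 (227 and 222 CPM) were not counted as different. Detection overlapped among the genes, with Rsad2 in 23.98% of control cells with Isg15 against 6.07% of those without, and in 22.03% against 5.67% of Cre cells. Cells with at least 5 of 1000 UMIs on this list, a limit set after seeing the data, were 144 of 2083 in the control (6.91%, 5.86 to 8.09) and 62 of 1064 in the Cre library (5.83%, 4.50 to 7.41), and they held 40.0% and 39.4% of the list's UMIs.

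Receptors for bacterial products were lower in part. Of 16 pattern and Fc receptor genes 5 were lower and 0 higher, with a median of -0.35. Cd14, the lipopolysaccharide co-receptor, was at 1976 and 1094 CPM, a fold of 0.553 (0.531 to 0.577). Trem1, which amplifies inflammatory signals, was at 1319 and 992 CPM, Pglyrp1, a granule protein that binds peptidoglycan, at 1041 and 755 CPM, and Fcer1g, the shared Fc receptor chain, at 2303 and 1779.6 CPM. Except for Cd14 these calls, with that of Trem3, were near the limit, and with S100a8 and S100a9 required to be at least 2% of UMIs Cd14 was the only one left. Tlr2 and Tlr4 were at 366 and 469 CPM and 42.4 and 60.6 CPM.

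Some chemoattractant receptors were lower, while no adhesion gene was counted as different. Of 9 chemoattractant receptors 2 were lower and 0 higher, beside 4.58% and 4.35% of all genes. The 2 were Ltb4r1 for leukotriene B4 at 95.6 and 67.5 CPM and Cxcr1 at 13.4 and 7.73 CPM. Ccr1 was at 708 and 951 CPM, C5ar1, the receptor for complement C5a, at 942 and 931 CPM, and Fpr1 and Fpr2, for formyl peptides, at 278 and 242 CPM and 254 and 299 CPM. None of 12 adhesion genes was counted. Itgal, the alpha chain of LFA-1, was at 390.4 and 559 CPM and in 33.8% and 46.3% of cells, and Itgam, the alpha chain of Mac-1, at 339 and 352 CPM.

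Each effector and metabolic list had at most 2 genes counted as different, all of them lower, beside 4.58% of all genes lower. Of 7 genes of the NADPH oxidase and neutrophil extracellular traps, Ncf4 was lower (256 and 185 CPM), while Ncf1 was at 428 and 509 CPM and Padi4, which citrullinates histones, at 52.1 and 53.7 CPM. None of 7 lipid mediator genes was counted, among them Alox5ap of leukotriene synthesis at 1362 and 1131 CPM. Of 11 survival genes, Bcl2l11, the pro-apoptotic BIM, was lower (242 and 173 CPM). Mcl1, on which neutrophil survival depends, was at 2699 and 2505 CPM, and Bcl2a1a at 62.1 and 104 CPM, one of near-identical copies that reads may be split between. Of 15 glycolysis genes, Gapdh (1190.2 and 918 CPM) and Slc2a1 were lower. Of 11 myeloid transcription factors, Spi1 (PU.1, 997 and 737 CPM) was lower, and Cebpb, the C/EBP factor of mature neutrophils, at 5214 and 4125 CPM, lay just short of the limit at -0.57.

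Genes of the LKB1 pathway showed no common difference. Of 16 measured, Sik3, a salt-inducible kinase activated by LKB1, was higher (37.6 and 71.2 CPM, a relative log2 difference of 0.61), and the call was lost under 5 alternatives. Stk11 had a relative log2 difference of -0.15, Cab39, the MO25 scaffold of the LKB1 complex, was at 86.9 and 148 CPM, and Prkaa1, a catalytic subunit of AMPK, at 26.98 and 40.7 CPM. Of 20 immediate early and heat shock genes, which tissue dissociation is known to induce, Hspa1b was higher (26.3 and 61.8 CPM). Fos was at 1175 and 1579.5 CPM and Egr1 at 917 and 1501 CPM. Both were under the limit but higher in the Cre library in all 6 depth ranges, as the list was in 5 of 6. The part of dissociation in the differences was not tested.

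By the fixed ranking on the interval bound nearest 1, the 12 genes highest in the Cre neutrophils were Fhl1, Arl4c, Cxcl14, Osm, C4b, Ibtk, Ccnt2, Gdap10, Gsn, Heg1, Mfsd6 and Trim8. Osm (chr11:4236420-4241026, plus strand) encodes oncostatin M, an IL-6 family cytokine. It was at 180.2 CPM (1356 UMIs) in the control and 442 CPM (1087 UMIs) in the Cre library, a fold of 2.45 (2.26 to 2.66). At 1000 UMIs it was found in 15.1% (13.6 to 16.7) and 28.9% (26.2 to 31.8) of neutrophils, against 0.7% and 1.44% of B cells. Arl4c, a small GTPase of the ARF family, was at 25.9 and 77.7 CPM, a fold of 2.997 (2.44 to 3.68), and was found in 1.97% and 6.58% of neutrophils against 1.35% and 2.13% of B cells. Mfsd6, a membrane transporter family member, was at 55.8 and 122 CPM, Trim8, a ubiquitin ligase, at 33.2 and 76.05 CPM, and Ibtk, an inhibitor of Bruton's kinase, at 26.98 and 66.7 CPM. Ccnt2, a cyclin of the elongation factor P-TEFb, was at 22.6 and 55.7 CPM and Gdap10 at 33.8 and 79.3 CPM.

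The other 5 named higher genes are also made by mesenchymal or endothelial cells. Fhl1, a LIM-domain protein, had the highest fold, 3.91 (3.18 to 4.802), at 22.6 and 88.2 CPM, but 19.2 and 53.6 CPM at 1000 UMIs per cell. C4b, complement C4, went from 47.7 and 115 CPM to 12.002 and 43.2 CPM when cells were thinned, and the chemokine Cxcl14 from 19.7 and 60.2 CPM to 15.4 and 27.3 CPM. Gsn, the actin-severing gelsolin, was at 433 and 867 CPM with a relative log2 difference of 0.77, which was 0.06 among cells of 1000 to 3000 UMIs. Heg1, an endothelial junction protein, was at 24.99 and 58.97 CPM. Of the 5 fibroblast markers 4 were higher too, with Col3a1 at 127 and 366 CPM and Mgp at 877 and 2144 CPM, and the list sum at 1000 UMIs per cell was 706 and 1425 CPM. Their part in these 5 genes was not tested.

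The 12 named lower genes were Bpifa1, Wfdc17, Stfa2, Ly6g, Wfdc21, Upp1, Ifitm1, Hilpda, Lrg1, Traf1, Anxa1 and G0s2. Wfdc17 (chr11:83703991-83706268, plus strand), a secreted WAP-domain protein of myeloid cells, was at 2988 CPM (22477 UMIs) in the control and 918 CPM (2257 UMIs) in the Cre library, a fold of 0.307 (0.294 to 0.321). At 1000 UMIs 67.4% of the control neutrophils and 35.9% of the Cre neutrophils had it, as did 4.05% and 4.55% of B cells. In all other cells the order was the opposite, at 136 and 312 CPM. Ly6g was at 223 and 82.6 CPM, a fold of 0.371 (0.319 to 0.429), and it lies in a family of similar genes. Lrg1, a leucine-rich glycoprotein kept in neutrophil granules, was at 912 and 430.3 CPM, and Upp1, uridine phosphorylase, at 73.2 and 27.2 CPM. Traf1, an adaptor of TNF receptors and an NF-kB target, was at 137 and 59.8 CPM, and Stfa2 at 55.96 and 17.1 CPM. Bpifa1, a secreted airway epithelial protein, had 2627 UMIs in the control and 3 in the Cre library, 286-fold lower in CPM (97.8 to 1389), but 41.3 and 1.88 CPM at 1000 UMIs per cell, and was found in 0.576% and 0.188% of neutrophils against 0.75% and 0.288% of B cells. Of the 3 club cell genes 2 were lower as well, with Scgb1a1 at 6698 and 1216 CPM.

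**Figure D4:**
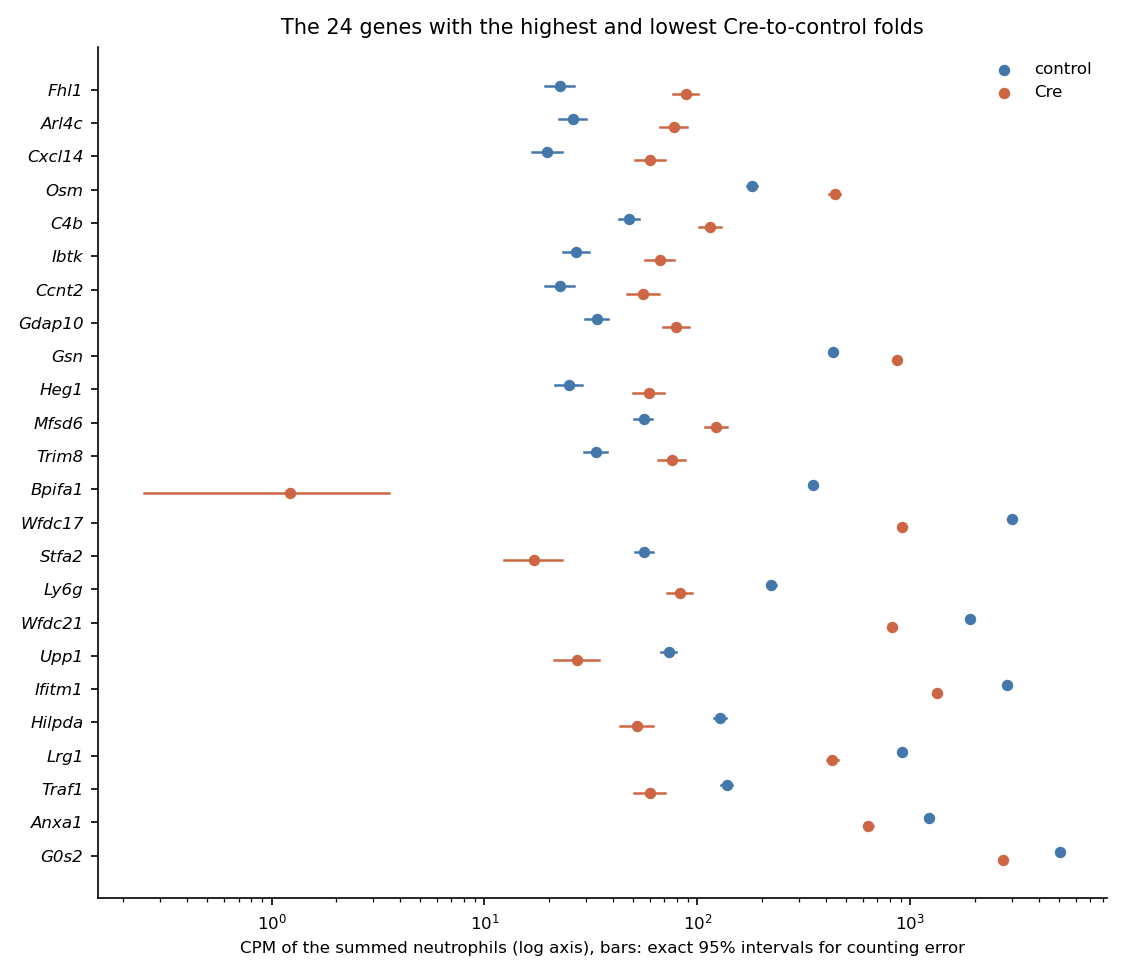
CPM of the summed neutrophils (log x axis) of the control (blue) and Cre (orange) library for the 12 highest and 12 lowest genes (rows), with bars for exact 95% intervals on counting error. No interval pair overlaps, which the ranking on intervals sets, and Bpifa1 is lowest in the Cre library at 1.22 CPM.

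Some differences in the neutrophils were also seen in B cells of the same libraries, which are not known to make these genes. Chil3, a chitinase-like protein that is on the immature list and is also made by alveolar macrophages, was detected at 1000 UMIs in 5.76% and 25% of neutrophils and in 3.1% and 19.9% of B cells. Retnla, picked out after its values were seen, was in 0.912% and 17.4% of neutrophils and 0.65% and 15.8% of B cells. For both genes the difference between the libraries was far larger than that between the cell types. The haemoglobin gene Hbb-bs was in 14.8% and 27.7% of neutrophils and 12.2% and 23.6% of B cells. Mgp was in 16.9% and 31.1% against 18% and 24.8%. By contrast G0s2, Ifitm1, Anxa1, Wfdc17 and Osm were found in at most 4.55% of B cells of either library. The AT2 gene Sftpc, at medians of 2 and 1 UMIs per neutrophil, had the same medians in B cells.

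**Figure D5:**
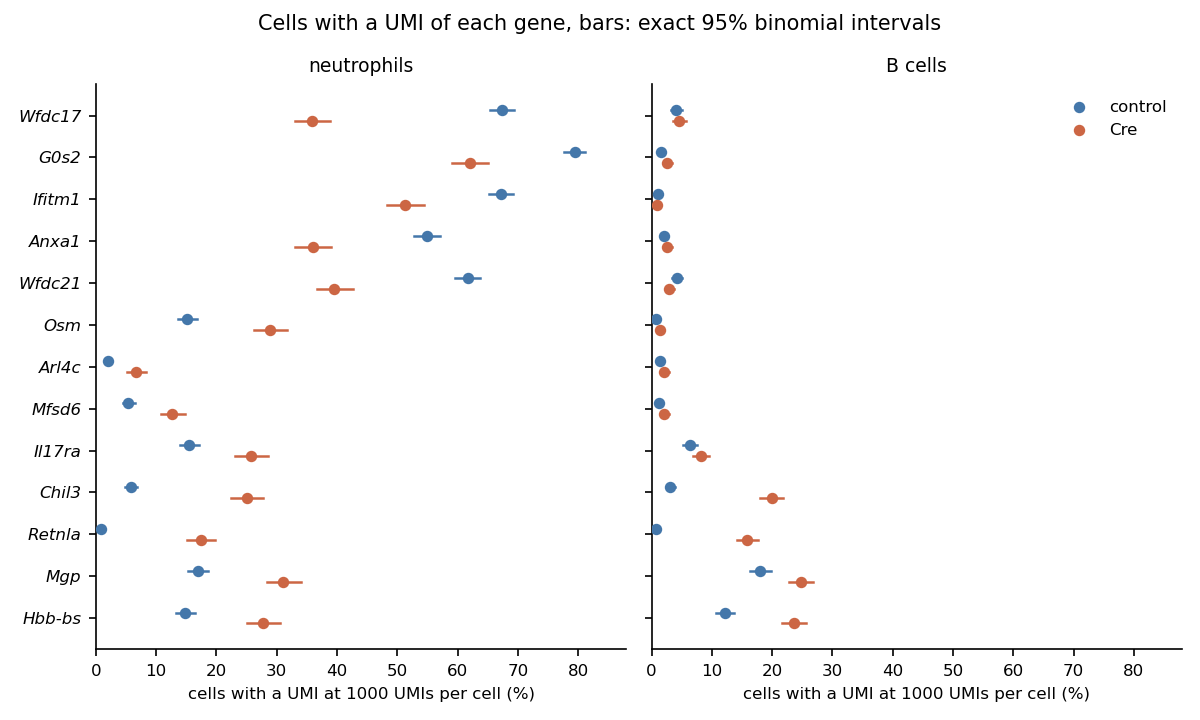
Percent of cells with a UMI at 1000 UMIs per cell (x axes) for 13 genes (rows) in neutrophils (left) and B cells (right) of the control (blue) and Cre (orange) library, with exact 95% binomial intervals as bars. Chil3, Retnla, Mgp and Hbb-bs are higher in the Cre library in both cell types, and Wfdc17, G0s2, Ifitm1, Anxa1 and Wfdc21 are lower only in the neutrophil panel by more than 2 percentage points.

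Cell cycle genes were counted as higher on very few UMIs. Of 12 genes 7 were higher, with Ube2c at 55 and 75 UMIs, Top2a at 34 and 37 and Birc5 at 14 and 39. At 1000 UMIs per cell Top2a was found in 0.144% and 0.47% of neutrophils and in 1.45% and 1.84% of B cells, and 1 of 4 measurable genes, Tuba1b, was higher. With S100a8 and S100a9 at 2% of UMIs or more, Top2a, Stmn1 and Ube2c turned to relative log2 differences of -0.069, -0.021 and -0.39. The abundant chromatin protein gene Hmgb2, which mature neutrophils keep, was at 1232 and 1085 CPM.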

How the data were processed

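Single cells were captured with 10x Chromium 3' v3 chemistry, and the values used are the raw UMI counts per gene and barcode deposited by the authors. The submitters' processing notes name Cell Ranger 3.1.0, STAR and the mm10 build, and the matrix headers give software version 3.0.0. The libraries held 74219499 (control) and 81598779 (Cre) UMIs in 13587 and 16821 barcodes, of which 12863 and 15111 passed the cell filter. Counts of the neutrophils were summed per library and scaled to CPM, with 5 CPM added before logarithms. Cells were thinned with a fixed seed (numpy 2.4.6, scipy 1.17.1, pandas 2.3.3 in Python 3.11.15). Scrublet in scanpy 1.11.5 marked doublets, which were kept, and their removal was an alternative.

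Shares have Clopper-Pearson intervals, and ratios exact conditional Poisson or binomial ones. B cells had at least 3 UMIs of Cd79a and Cd79b and under 1% of S100a8 and S100a9. The members and lists were chosen with earlier results of these data known. The 24 named genes are the 12 highest and 12 lowest by the interval bound nearest 1. They had at least 50 UMIs and, where higher, at least 50 CPM and 0.5 of the CPM of other cells, without mitochondrial, ribosomal, haemoglobin, immunoglobulin, T cell receptor, predicted, dissociation-list, selection and sex-linked genes. List members are named too. Promoters are RefSeq windows matched by symbol. The intervals and calls were run on simulated Poisson counts, the model that the intervals assume. UMIs gathered in few cells were not simulated, so the run says nothing about these. A few list members are not reported here.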

Additional observations from a re-analysis of the deposited data

Results flagged for a closer look

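Some barcodes outside the cell filter met the S100a8 and S100a9, receptor, Cd79a and C1q parts of the rule, and are given as a description since the rule picked them. There were 30 in the control library, or 4.14% of 724 barcodes outside the filter, and 24 in the Cre library, or 1.40% of 1710. Of these, 29 and 24 had over 20% mitochondrial UMIs. Their medians were 3241.5 and 1980 UMIs. They are part of no comparison in the report.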

How the results depend on the processing

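The share of neutrophils stayed lower in the Cre library under all alternatives, with log2 ratios from -0.79 (cells with 2 or more UMIs of other lineages left out) to -1.21 (S100a8 and S100a9 at least 2% of UMIs). The immature list's log2 ratio was -0.34 with S100a8 and S100a9 at least 2%, -0.35 with 2 marker UMIs, -0.55 with the rule on cells thinned to 500 UMIs, -0.37 without cells of other lineages, -0.48 thinned to 500 UMIs and -0.050 in cells of 1000 to 3000 UMIs. Without cells over 5000 UMIs it reversed to 0.044 (-0.003 to 0.09), and all these ratios include Chil3. The mature list's ratio was -0.28 without cells over 5000 UMIs, -0.23 without doublets, -0.27 and -0.22 with S100a8 and S100a9 at least 0.5% and 2%, -0.21 with the thinned rule, -0.22 thinned to 500 UMIs and -0.29 in cells of 1000 to 3000 UMIs. The ratio of cells with Ltf, Camp or Ngp was -0.079 without cells over 5000 UMIs, -0.27 without other lineages and reversed to 0.70 in cells of 1000 to 3000 UMIs.

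Genes counted were 159 higher and 112 lower with 20 CPM added, and 1444 and 177 without centring. The 73 genes followed were all past 1.5-fold in the main setting. Of them, 66 kept their sign under every alternative in which they were measured, and 34 stayed past 1.5-fold. Some were measured in only part of the 15 alternatives, such as Cdk1 in 8 and Birc5 in 9. Camp reversed to 4.13 without cells over 5000 UMIs, 3.90 in cells of 1000 to 3000 UMIs and 0.99 without other lineages. Under the first pair of settings Ngp reversed to 2.46 and 2.93, Serpinb1a to 0.56 and 0.30 and Itgb2l to 0.48 and 0.74. With S100a8 and S100a9 at least 2%, Top2a, Stmn1 and Ube2c reversed to -0.069, -0.021 and -0.39. Leaving out cells over 5000 UMIs, and limiting the gene counts to cells of 1000 to 3000 UMIs, were chosen after seeing the data. Causes were not tested beyond the fewer cells each setting leaves. No paired analysis was possible because each genotype has 1 library. The median depth of 1585 UMIs per Cre neutrophil limits what can be detected of rare transcripts.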
